A study of Mus musculus with 4 samples.

Results

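Transcripts of 9 genes of sphingosine 1-phosphate (S1P) signalling were followed in mouse melanocyte stem cells, from which the pigment cells of hair arise, among 27933 genes counted. The genes were the receptors S1pr1, S1pr2, S1pr3 and S1pr5, the kinases Sphk1 and Sphk2, the lyase Sgpl1, the phosphatase Sgpp1 and the exporter Spns2. S1pr3 was chosen by its log2 fold change between stressed and control cells, which is among the largest rises, and the other 8 genes because they belong to its pathway. The fold changes of all 9 are therefore given as descriptions, with no test. Cells had been sorted from skin by flow cytometry 12 h after injection, from stressed mice given RTX, an agent the labels name only by this abbreviation, or from control mice given saline. Each group had 2 RNA-seq libraries made with the Smart-Seq V4 kit. Strain, age and the markers of the sort are not given in the sources used here, nor whether the libraries came from separate animals, so the spread between replicates may be partly technical.

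S1P is a bioactive lipid made inside cells when a sphingosine kinase phosphorylates sphingosine, a breakdown product of ceramide. It leaves the cell through a transporter and binds G protein-coupled receptors on the same or on neighbouring cells, where the receptor subtypes differ in the G proteins they engage. S1P phosphatase returns the lipid to sphingosine, and S1P lyase cleaves it irreversibly. The pathway is best known for guiding the migration of lymphocytes and the barrier function of endothelium.

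Reads assigned to genes numbered from 9273652 to 11854280 per library. Defining pigment cell genes were abundant in every library, with 12 markers summing to 41612 and 38794 CPM (read counts scaled to a common library total) in stressed cells, against 24023 and 22959 CPM in control cells. The 17 keratinocyte markers summed to 12239 and 10613 CPM in stressed cells, against 29773 and 18506 CPM in control cells. Keratinocyte RNA was therefore present throughout, and the marker sum was lowest in the stressed libraries. Single markers differed. Krt6a lay the other way, at 76.4 and 71.5 CPM in stressed cells and at 6.75 and 55.8 CPM in control cells. Dsg3, Sfn, Itga6, Cdh3 and Lgals7 overlapped between the groups, and the other keratinocyte markers lay lower in both stressed libraries. By edgeR's quasi-likelihood test 0 of 13348 genes passed an adjusted p of 0.05 (0%), with 1705 at an unadjusted p below 0.05. Limma-voom likewise called 0, with 1700 at an unadjusted p below 0.05, whereas DESeq2 called 587 (4.4%). Because these are bulk libraries, fewer cells of a type and less RNA per cell cannot be told apart.

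Of the receptors, S1pr3 couples to several classes of G protein, including those that act through phospholipase C. The gene lies on chromosome 13 (mm10, 51408618-51422797, plus strand) and has 2 exons, of which 1 holds the whole coding sequence. Its counts were 358 and 1025 in the stressed libraries, against 36 and 86 in the control libraries. Scaled for depth, S1pr3 stood at 33.6 and 93.2 CPM in stressed replicates 1 and 2, and at 3.86 and 7.29 CPM in control replicates 1 and 2. Both stressed libraries lay above both controls, and the stressed libraries themselves were 2.77-fold apart. The means were 63.4 ± 42.1 CPM in stressed cells and 5.57 ± 2.43 CPM in control cells (SD, n = 2 each), 11.4-fold apart. The fitted log2 fold change was 3.49 with a standard error (SE) of 0.58. Its size depended on stressed replicate 2, being 2.60 without that library and 4.05 without stressed replicate 1. Leaving out a control library gave 3.12 for replicate 1 and 4.04 for replicate 2.

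Ordered by log2 fold change, S1pr3 was number 30 of the 13348 genes tested and number 4 of the 9961 genes averaging at least 10 CPM. It exceeded 10 CPM only in the stressed libraries, and both ranks restate the rise by which it was chosen. Among the members, both stressed libraries lay above both controls for S1pr3 alone, a pattern shown by 21.8% of all tested genes. For S1pr2, S1pr5, Sphk2 and Sgpp1 the stressed pair lay wholly below the control pair, as for 22.9% of tested genes. For Sphk1, Sgpl1 and Spns2 the groups overlapped, and S1pr1 did not pass the filter on low counts. Since the choice of the genes rested on this comparison, nothing is read from these counts.

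**Figure D1:**
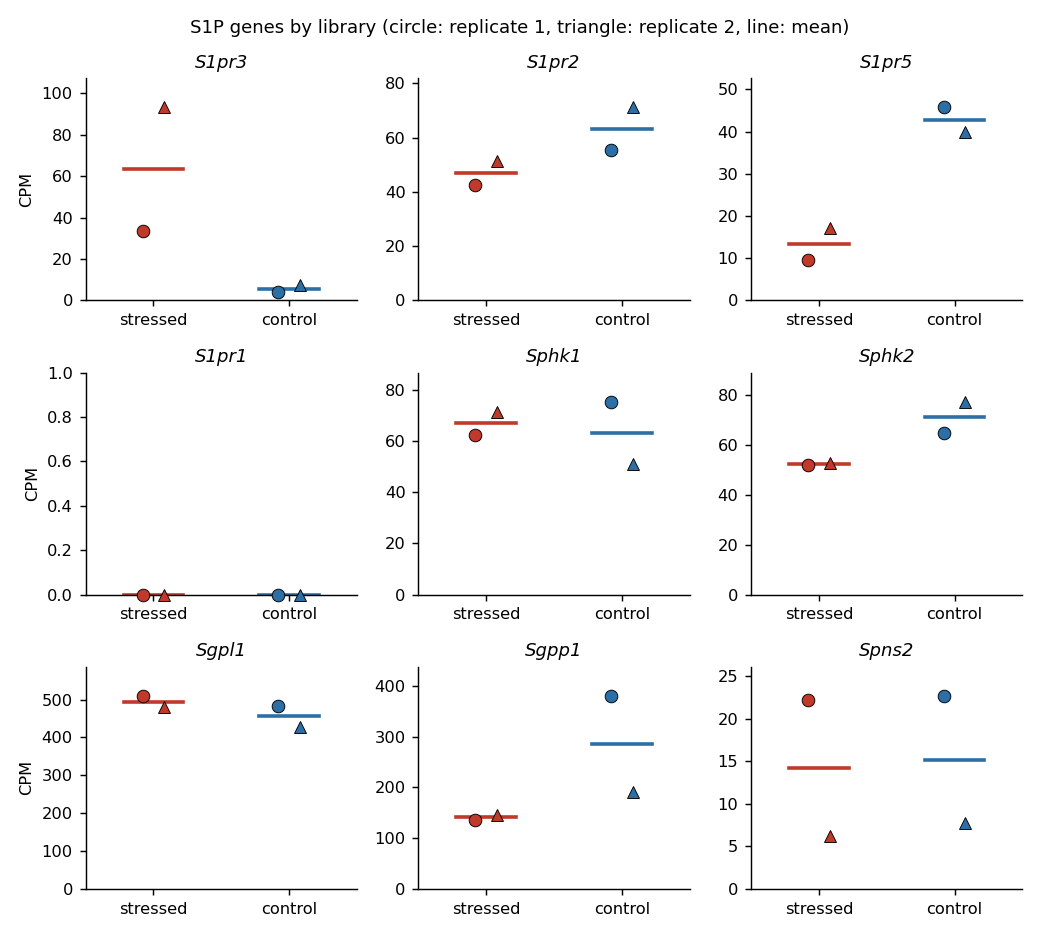
CPM of each of the 9 S1P genes (vertical axes from 0) in the 2 stressed and 2 control libraries, with the mean of each group as a line. S1pr3 lies at 33.6 and 93.2 CPM in stressed cells and under 10 CPM in both controls, S1pr5 shows the opposite order, and Spns2 splits by library within each group.

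**Figure D2:**
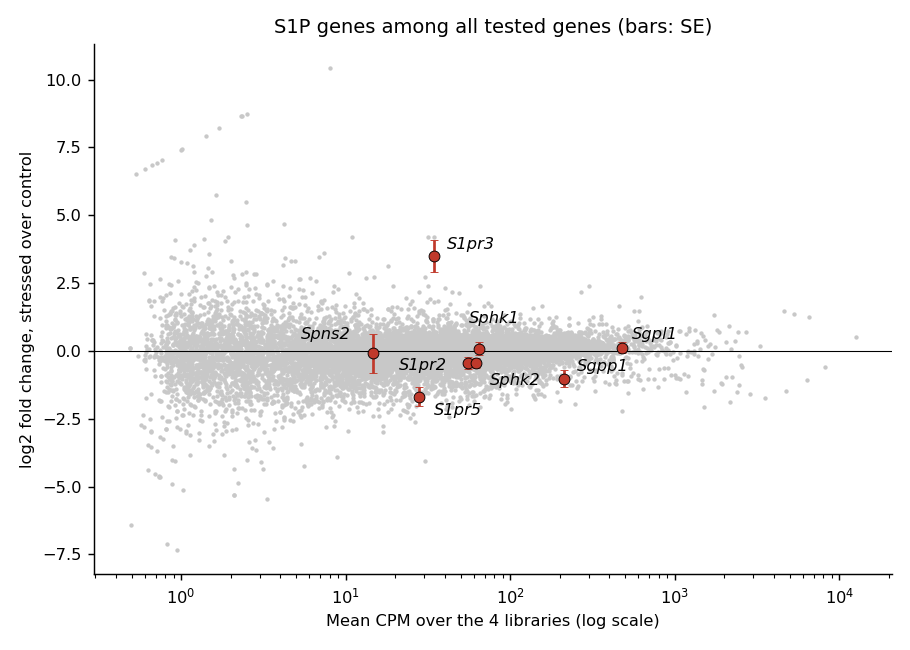
Fitted log2 fold change, stressed over control, against mean CPM over the 4 libraries on a log axis, for all 13348 tested genes (grey) and the 8 S1P genes tested (red, bars are SE). S1pr3, at 3.49, lies well above the cloud of genes of like abundance, while S1pr5 (-1.69) and Sgpp1 (-1.02) lie in its lower part.

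The sequences before the starts of S1pr3 and S1pr5 are shown because these 2 receptors had the largest log2 fold changes of the 9 genes and lay on opposite sides of the controls. Each is the 250 bases before the RefSeq start (GRCm38.p6), read 5′ to 3′ on the gene's strand. The S1pr3 window is chr13:51408368-51408617 on the plus strand, and the S1pr5 window is chr9:21248444-21248693 on the minus strand.
S1pr3: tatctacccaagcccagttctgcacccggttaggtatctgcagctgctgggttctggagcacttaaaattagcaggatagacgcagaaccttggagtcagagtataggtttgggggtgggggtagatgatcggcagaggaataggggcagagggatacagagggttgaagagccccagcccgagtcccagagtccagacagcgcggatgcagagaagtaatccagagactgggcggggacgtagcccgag
S1pr5: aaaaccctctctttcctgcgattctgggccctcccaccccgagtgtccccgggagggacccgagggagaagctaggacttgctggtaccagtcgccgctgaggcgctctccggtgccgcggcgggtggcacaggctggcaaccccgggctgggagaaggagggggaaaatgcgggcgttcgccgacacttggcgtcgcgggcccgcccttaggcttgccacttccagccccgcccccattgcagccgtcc
RefSeq windows of 250 bases before to 50 after a start were searched on both strands for the cAMP response element (CRE, TGACGTCA), through which cAMP signals reach many promoters, and for its core TGACG, which the full element contains. Of the 9 genes 8 had a window, some with several starts; S1pr1 had no entry. Neither the S1pr3 nor the S1pr5 window held the full element or the core. The full element occurred in the S1pr2 window, starting 181 bases before the start, and in the first of the 2 Sphk2 windows, starting at base 4 after it. Those matches are in capitals within 30 bases of context, at chr9:20976956-20976985 and chr7:45717981-45718010, both on the minus strand.
S1pr2: taagagagctgTGACGTCAcgcggccgtga
Sphk2: tggtgcacgggTGACGTCAcatgagcgcga
Of 32544 promoter windows of this length, 1.8% held the full element and 20.9% the core. The S1pr3 and S1pr5 windows also held no AP-1 site (TGANTCA, in 7.79% of windows) and neither of the E-boxes CATGTG and CACGTG, which melanocyte factors of the MITF family recognise (in 14.2% and 7.17% of windows). Other members did hold such matches. The core occurred outside a full element in the overlapping Sphk1 windows 2 and 3 and in the first Sphk2 window. An AP-1 site occurred in Sphk1 windows 2 and 3, CACGTG in Sphk1 windows 4 and 5, and CATGTG in the first Sphk2 window. A match is a description of the letters and does not show that a factor binds there.

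S1pr5 (chromosome 9, 21242912-21248443, minus strand), which in other tissues is best known from natural killer cells and oligodendrocytes, lay the other way from S1pr3. It stood at 9.48 and 17.1 CPM in stressed cells and at 45.7 and 39.8 CPM in control cells, with no overlap. Its log2 fold change was -1.69 with an SE of 0.34, and it lay between -2.16 and -1.32 when each library was left out in turn. S1pr2 (chromosome 9, 20965952-20976793, minus strand), a receptor known for restraining cell migration, stood at 42.6 and 51.3 CPM in stressed cells and at 55.5 and 71.2 CPM in control cells. Its log2 fold change was -0.43 with an SE of 0.22, a smaller distance than that of either other receptor. S1pr1 (chromosome 3, 115710433-115715072, minus strand), the main receptor of endothelium and lymphocytes, had 0 counts in all 4 libraries. A count of 0 allows up to 3 counts, which is 0.273 to 0.282 CPM in the stressed libraries and 0.254 to 0.321 CPM in the control libraries, counting error only. S1pr4, the remaining receptor of the family and a gene of blood cells, also had 0 counts in every library.

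Levels of different genes were compared per length, as RPKM, which is CPM divided by the exon length of the gene in kilobases as the files give it. In stressed cells S1pr3 had 7.49 and 20.8 RPKM, S1pr2 had 15.1 and 18.2 RPKM, and S1pr5 had 3.79 and 6.84 RPKM. In control cells S1pr3 had 0.860 and 1.62 RPKM, S1pr2 had 19.7 and 25.3 RPKM, and S1pr5 had 18.3 and 15.9 RPKM. S1pr3 thus held 28.4% and 45.3% of summed receptor RPKM in the stressed libraries, against 2.21% and 3.79% in the controls. The share of S1pr5 was 14.4% and 14.9% in the stressed libraries, against 47.1% and 37.2% in the controls. S1pr2 held 57.3% and 39.7% in stressed cells and 50.7% and 59.0% in control cells, so its share overlapped between the groups. The sum over the receptors was 26.4 and 45.8 RPKM in stressed cells and 38.9 and 42.8 RPKM in control cells, which also overlapped.

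**Figure D3:**
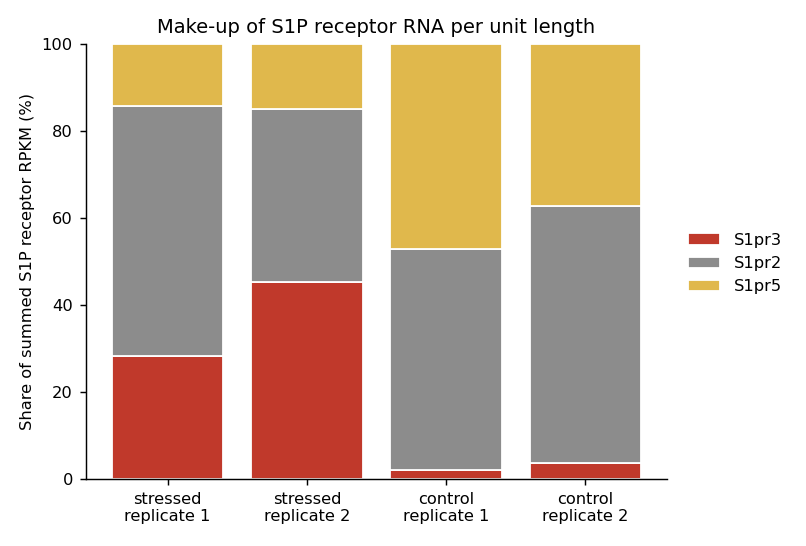
Share of summed S1P receptor RPKM (vertical axis, percent) held by S1pr3, S1pr2 and S1pr5 in each library, with each library summing to 100%. S1pr3 takes 28.4% and 45.3% in the stressed libraries and under 4% in the controls, where S1pr5 takes 47.1% and 37.2%; S1pr1 and S1pr4 had no counts.

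The kinases that make S1P lay closer to their control levels than S1pr3 and S1pr5 did. Sphk1 (chromosome 11, 116530925-116536674, plus strand), the mostly cytosolic and inducible kinase, stood at 62.2 and 71.4 CPM in stressed cells, within the control values of 75.3 and 51.2 CPM. Its log2 fold change of 0.08 (SE 0.24) turned to -0.01 without stressed replicate 2 and to -0.17 without control replicate 2, and was 0.39 without control replicate 1. Sphk2 (chromosome 7, 45709463-45718002, minus strand), the kinase found largely in the nucleus and mitochondria, stood at 51.9 and 52.6 CPM in stressed cells and at 64.7 and 77.4 CPM in control cells. Its log2 fold change was -0.44 with an SE of 0.19. In the files 13.2% of the exon bases of Sphk2 are shared with Dbp on the opposite strand, and 4.02% of those of Sphk1 with Gm29292. GENCODE M21 places a further 302 bases of Sphk2 under Rpl18, also on the opposite strand. Counting ignored strand, so the gene from which reads in these stretches came cannot be told. The files do not place Rpl18 over Sphk2, so reads in those 302 bases could count as Sphk2. The Sphk2 level is uncertain to that extent.

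The genes that end the signal or move the lipid showed 3 different patterns. Sgpl1 (chromosome 10, 61098642-61147703, minus strand), the lyase of the endoplasmic reticulum that degrades S1P for good, was the most abundant member per length in stressed cells at 83.0 and 78.1 RPKM, against 78.7 and 69.6 RPKM in control cells. Its log2 fold change was 0.12 with an SE of 0.19, and the groups overlapped. Sgpp1 (chromosome 12, 75714248-75735729, minus strand), the phosphatase that returns S1P to sphingosine, stood at 136 and 146 CPM in stressed cells and at 380 and 192 CPM in control cells. The stressed libraries were nearly level, while control replicate 1 was 1.98-fold above control replicate 2. The log2 fold change of Sgpp1 was -1.02 with an SE of 0.33, but -0.44 without control replicate 1 and -1.43 without control replicate 2. Control replicate 1 also had the most keratinocyte marker RNA, as given above, and the part of that RNA in the Sgpp1 difference was not tested. Spns2 (chromosome 11, 72451638-72489904, minus strand), the transporter that exports S1P, stood at 22.2 and 6.18 CPM in stressed cells and at 22.7 and 7.71 CPM in control cells. It was high in replicate 1 and low in replicate 2 of each group, by 3.60-fold in stressed and 2.95-fold in control cells, so its log2 fold change of -0.09 had an SE of 0.71. It was positive when control replicate 1 (0.89) or stressed replicate 2 (0.56) was left out, and leaving out stressed replicate 1 or control replicate 2 gave -1.29 or -0.68. Of the exon bases of Spns2, 3.21% are shared with Mybbp1a on the opposite strand.

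The order of levels per length, from high to low, was Sgpl1, Sgpp1, S1pr2, S1pr3, Sphk1, Sphk2, S1pr5 and Spns2 in stressed cells. In control cells it was Sgpp1, Sgpl1, S1pr2, Sphk2, S1pr5, Sphk1, Spns2 and S1pr3. The library values of neighbours overlapped in stressed cells for S1pr2 with S1pr3, S1pr3 with Sphk1, and S1pr5 with Spns2. In control cells they overlapped for Sgpp1 with Sgpl1 and for Sphk2 with S1pr5. S1pr3 was therefore the lowest detected member in control cells, below both values of Spns2. The ratio of lyase to phosphatase RPKM, Sgpl1 over Sgpp1, was 2.03 and 1.78 in the stressed libraries and 0.688 and 1.21 in the controls. Because Sgpl1 overlapped between the groups, this ratio mostly restates the Sgpp1 log2 fold change of -1.02, which was -0.44 without control replicate 1. The kinase ratio, Sphk1 over Sphk2, was 1.03 and 1.16 in the stressed libraries and 0.998 and 0.567 in the controls.

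In other tissues S1pr1 and S1pr3 are known from endothelial and mural cells, whose markers were therefore read in the same libraries. The endothelial genes Cdh5, Cldn5 and Erg had 0 counts in all 4 libraries. The 12 endothelial markers summed to 8.66 and 12.1 CPM in stressed cells and to 18.0 and 9.95 CPM in control cells. S1pr3 lay above these sums in both stressed libraries and below them in both control libraries. The 12 mural and fibroblast markers summed to 197 and 272 CPM in stressed cells and to 76.2 and 97.6 CPM in control cells, and 10 of them were under 10 CPM in every library. Most of that sum was Cspg4, a proteoglycan gene that pigment cells also express, at 162 and 250 CPM in stressed cells and at 64.0 and 74.0 CPM in control cells. Of the others, Myh11, a smooth muscle myosin gene, stood at 5.44 and 9.73 CPM in stressed cells and at 3.96 and 2.54 CPM in control cells, and Col1a2, a collagen gene, at 3.10 and 4.82 CPM in stressed cells and at 1.39 and 2.12 CPM in control cells. Dcn, a matrix proteoglycan gene, stood at 15.1 and 7.55 CPM in stressed cells and at 0.214 and 9.57 CPM in control cells, with overlap. The collagen gene Col1a1 lay the other way, at 0.563 and 0.182 CPM in stressed cells and at 2.14 and 1.27 CPM in control cells, and the pericyte genes Pdgfrb and Rgs5 were under 2 CPM in every library. The 12 immune markers summed to 14.9 and 13.1 CPM in stressed cells and to 15.5 and 51.0 CPM in control cells. The 12 Schwann cell and glial markers summed to 1221 and 1038 CPM in stressed cells and to 1016 and 1423 CPM in control cells. The mean sum of pigment cell markers was 1.71-fold higher in stressed cells, but single markers differed widely. Oca2 averaged 72.4 CPM in stressed and 16.2 CPM in control cells, and Ednrb 1203 and 1207 CPM. Mitf, Sox10, Ednrb and Pax3 overlapped between the groups, and the other pigment cell markers lay higher in both stressed libraries. The mean sum of mural and fibroblast markers was 2.70-fold higher, most of it Cspg4, while Acta2, Tagln and Col3a1 overlapped between the groups. The part of RNA from any of these cell types in the S1pr3 difference was not tested.

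The genes on either side of S1pr3 were low or differed less. Shc3, 8244 bases beyond its end on the opposite strand, stood at 3.75 and 5.09 CPM in stressed cells and at 2.04 and 1.36 CPM in control cells (log2 fold change 1.38, SE 0.62, edgeR adjusted p = 0.428). Spin1, the nearest tested gene before it at 256072 bases, had a log2 fold change of -0.40 (SE 0.18, edgeR adjusted p = 0.414). No other gene of the files overlapped the S1pr3 exons. In GENCODE M21 the antisense gene Gm32834 shares 45 of their bases.

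Genes whose values over the 4 libraries lay nearest to S1pr3 were sought among 11088 tested genes averaging at least 5 CPM, by the distance between centred log2 CPM values. The nearest was Fn1, which encodes the matrix protein fibronectin, at a distance of 0.805. Fn1 stood at 19.5 and 45.1 CPM in stressed cells and at 3.75 and 3.56 CPM in control cells. Among the next 5 were Angptl4, which encodes a secreted inhibitor of lipoprotein lipase, the keratin gene Krt25, Lhfp and Gm16861, at distances of 1.36 to 1.39. Angptl4 stood at 110 and 111 CPM in stressed cells and at 14.5 and 27.4 CPM in control cells. Lhfp stood at 59.1 and 99.6 CPM in stressed cells and at 15.2 and 20.5 CPM in control cells, so that, as for S1pr3, stressed replicate 2 was the highest library. Over the same 4 libraries 573 genes reached a Pearson correlation of at least 0.95 with S1pr3. The 6 genes ranked first by correlation shared 0 with the 6 nearest by distance.

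Around these 9 genes, 6 lists of sphingolipid, receptor and effector genes were described, of which 89 of 97 members were tested. By edgeR's quasi-likelihood test 0 members passed over all genes (0% of all tested genes). With an unadjusted p under 0.05 by that test, 5 members lay higher and 12 lower. Of all 13348 tested genes 12.8% reached it in either direction, 690 higher and 1015 lower. DESeq2 called 2 of the 89 higher and 4 lower, against 1.73% and 2.67% of all tested genes. Of the 89, 44 had higher and 45 lower values in stressed cells. Among all 13348 tested genes 6557 were higher and 6791 lower, with a median log2 fold change of -0.01. Over the alternative settings that give an adjusted p, that of the 6 genes that DESeq2 called ran from 2.71e-06 to 0.99988 for Sptssa, from 1.46e-09 to 0.817 for Acer1 and from 0.0169 to 0.99996 for B4galt5. It ran from 0.000205 to 0.924 for Gnai1, from 0.0137 to 0.994 for Srf and from 0.00154 to 0.854 for Ajuba.

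Genes of sphingoid base and ceramide synthesis, which supply the sphingosine backbone, had a median log2 fold change of -0.15, with 10 of 16 lower. Sptssa, a small subunit of serine palmitoyltransferase, was called lower by DESeq2 (adjusted p = 0.0485) and not by edgeR (adjusted p = 0.275). It stood at 128 and 116 CPM in stressed cells and at 316 and 168 CPM in control cells, and its log2 fold change of -0.99 shrank to -0.46 when control replicate 1 was left out. Sptlc3, a catalytic subunit gene of the same enzyme, stood at 39.0 and 37.0 CPM in stressed cells and at 157 and 46.9 CPM in control cells, and control replicate 1 stood apart from the other 3 libraries. Its log2 fold change of -1.42 was -0.30 without that library (edgeR adjusted p = 0.330 with all libraries). The ceramide synthase genes Cers2 and Cers5 had the largest positive log2 fold changes of the list's genes averaging at least 5 CPM, at 0.52 and 0.35 (edgeR adjusted p = 0.451 and 0.519).

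Ceramide turnover and complex sphingolipid genes had a median of 0.10, with 10 of 19 higher, and the median turned to -0.09 without control replicate 2 and was 0.24 without control replicate 1. Acer1, an alkaline ceramidase gene of the epidermis, was called lower by DESeq2 (adjusted p = 0.00342) and not by edgeR (adjusted p = 0.231). It stood at 35.1 and 53.7 CPM in stressed cells and at 210 and 82.5 CPM in control cells, and its log2 fold change of -1.72 shrank to -0.89 when control replicate 1 was left out. The neutral ceramidase gene Asah2 stood at 1.97 and 2.18 CPM in stressed cells, against 17.6 and 3.22 CPM in control cells (log2 fold change -2.31, edgeR adjusted p = 0.325), and its difference was -0.62 without control replicate 1. For Sptssa, Sptlc3, Acer1 and Asah2, as for Sgpp1, control replicate 1, the library with the most summed keratinocyte marker RNA, was the highest. The part of that RNA was not tested. B4galt5, a lactosylceramide synthase gene, was called higher by DESeq2 (adjusted p = 0.0169) and not by edgeR (adjusted p = 0.171), at 62.5 and 71.7 CPM in stressed cells and at 32.0 and 37.8 CPM in control cells. Its close relative B4galt6 had a log2 fold change of 0.93 (edgeR adjusted p = 0.459).

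The other genes that handle S1P had a median of -0.41, with 8 of 10 lower, and -0.03 without stressed replicate 2. Abca1, a lipid exporter gene, stood at 89.6 and 73.2 CPM in stressed cells and at 119 and 184 CPM in control cells (log2 fold change -0.90, edgeR adjusted p = 0.248). Aldh3a2, which encodes the dehydrogenase that follows the lyase step, stood at 85.1 and 94.3 CPM in stressed cells and at 119 and 129 CPM in control cells (-0.47, edgeR adjusted p = 0.337). Of the transporter gene Mfsd2a and the lipid phosphatase gene Plpp2, neither passed edgeR's quasi-likelihood test (adjusted p = 0.832 and 0.998), at 0.31 and 0.0015 on the log2 scale. Mfsd2a turned to -0.19 without control replicate 2, and Plpp2 lay between -0.25 and 0.31 with 1 library left out. The second S1P phosphatase gene, Sgpp2, had 29 and 9 counts in stressed cells and 48 and 0 in control cells.

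Receptors for lysophosphatidic acid, some closely related to the S1P receptors, were listed with Enpp2, whose product makes that lipid. Their median log2 fold change was -1.14, with 6 of 7 tested members lower. The median was -0.04 without control replicate 2. Lpar1 had 202 and 168 counts in stressed cells and 164 and 679 counts in control cells, so that control replicate 2 alone set its log2 fold change of -1.14 (edgeR adjusted p = 0.445), which was -0.04 without it. Lpar3 had 29 and 44 counts in stressed cells and 109 and 71 counts in control cells (-1.39, edgeR adjusted p = 0.357). Lpar4 was the 1 tested member with a higher value in stressed cells, at 4.79 and 4.64 CPM against 1.82 and 3.39 CPM in control cells.

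G protein, small GTPase and effector genes that carry receptor signals into the cell had a median of 0.02, with 14 of 23 higher, and of -0.02 without stressed replicate 1 and 0.14 without control replicate 2. Gnai1, which encodes an inhibitory G protein alpha subunit, was called lower by DESeq2 (adjusted p = 0.00822) and not by edgeR (adjusted p = 0.201), at 29.9 and 19.9 CPM in stressed cells and at 86.5 and 48.5 CPM in control cells. Gnai2, another inhibitory subunit gene, stood at 492 and 562 CPM in stressed cells and at 347 and 410 CPM in control cells (log2 fold change 0.48, edgeR adjusted p = 0.406). Rhoc, a small GTPase gene, and Arrb1, a beta-arrestin gene that serves receptor desensitisation, had values of 0.42 and -0.40 (edgeR adjusted p = 0.461 and 0.531).

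Target genes of YAP and SRF, transcription regulators that respond to the actin cytoskeleton, had a median of 0.14, with 11 of 14 higher. Srf itself, the serum response factor gene, was called higher by DESeq2 (adjusted p = 0.0141) and not by edgeR (adjusted p = 0.155), at 110 and 108 CPM in stressed cells and at 65.2 and 59.1 CPM in control cells. The adhesion gene Vcl stood at 107 and 151 CPM in stressed cells and at 88.1 and 87.3 CPM in control cells (log2 fold change 0.56, edgeR adjusted p = 0.362). Ajuba, which encodes a LIM protein of cell junctions, was called lower by DESeq2 (adjusted p = 0.00179) and not by edgeR (adjusted p = 0.137), at 66.6 and 54.4 CPM in stressed cells and at 131 and 117 CPM in control cells. Amotl2 had a value of -0.63 (edgeR adjusted p = 0.445), and -0.13 without control replicate 2. The canonical YAP target Ccn1 stood at 720 and 634 CPM in stressed cells and at 509 and 682 CPM in control cells, with overlapping groups. Myl9, a myosin light chain gene averaging under 5 CPM, had 92 and 66 counts in stressed cells and 10 and 29 counts in control cells (2.03, edgeR adjusted p = 0.265).

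**Figure D4:**
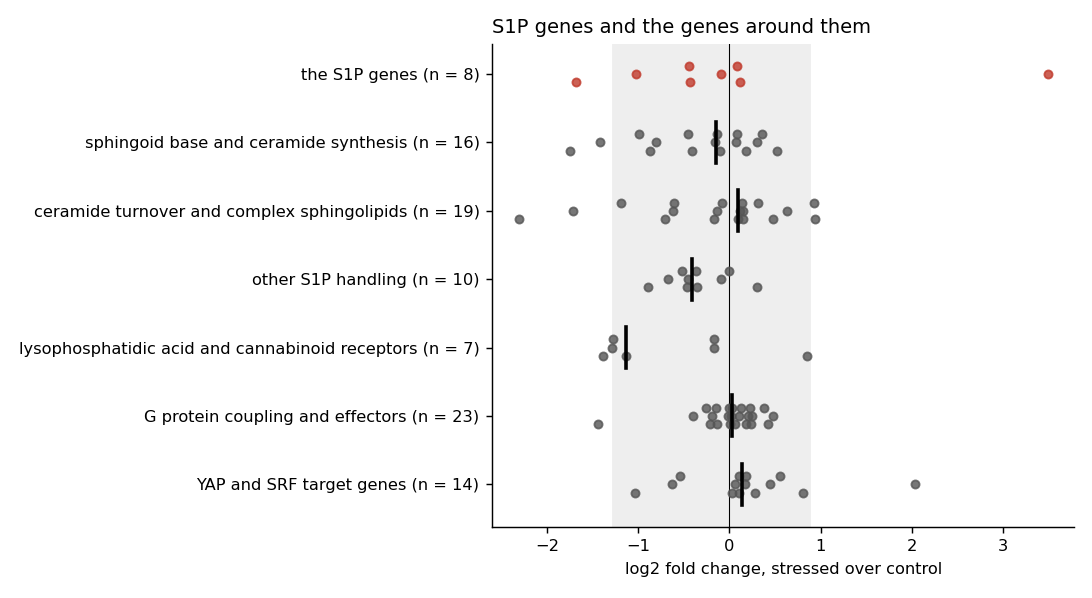
Fitted log2 fold change, stressed over control, of each tested gene (points) in the S1P genes (red) and in 6 lists of related genes (grey, black bar is the list median); the shaded band, from -1.28 to 0.88, holds 90% of all tested genes. S1pr3 (3.49) lies right of the band and S1pr5 (-1.69) left of it, while all 6 list medians lie inside it, that of the lysophosphatidic acid and cannabinoid receptors, at -1.14, being nearest to an edge.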

How the data were processed

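Values are raw read counts per gene in 4 libraries of sorted melanocyte stem cells, deposited by the authors and made with featureCounts 1.6.1, per the file headers: exons summed by gene name, mapping quality of at least 30, no strand or paired-end option. The tools named by the submitters' processing notes are STAR 2.5.3, DESeq2 1.22.2 and Trim Galore 0.4.1, with mm10 as the build. Per the file headers, the alignments of stressed replicates 1 and 2 carry the numbers 2 and 3.

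Groups and replicate numbers come from the labels, which give no batch or date. In R 4.3.3, genes passing edgeR's filterByExpr (minimum count 10) were scaled by TMM and compared by the two-sided quasi-likelihood F-test of edgeR 4.0.16, adjusted by Benjamini-Hochberg over all genes. CPM, the usual depth-scaled count, use the TMM-scaled library total; marker sums use all counts. An SE is the absolute log2 fold change over the square root of F. DESeq2 1.42.0, limma 3.58.1 and the other alternatives are under the closing section. Replicates differed by more than sampling noise (chi-square per degree of freedom 18.96 in the stressed and 57.63 in the control pair). The edgeR, DESeq2 and limma-voom fits were tested on simulated data with the same spread in both groups, unlike these libraries.

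Members and lists were chosen with earlier results of these data known. Named were all 9 genes, the listed genes called by either tool, and the 2 highest and 2 lowest of each list averaging at least 5 CPM; S1pr4, Sgpp2, Lpar4, Ccn1, Myl9, single marker genes and the genes beside S1pr3 were added after their values were seen. A gene among those most like S1pr3 is not reported here. Promoter windows are those of RefSeq on GRCm38.p6.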

Additional observations from a re-analysis of the deposited data

How the results depend on the processing

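The number of genes called was 0 by edgeR's quasi-likelihood test, and also 0 by limma-voom, with edgeR's robust fit, DESeq2 size factors, upper-quartile scaling, a minimum of 5 CPM in 2 libraries and thinning to the smallest library. It was 587 by DESeq2, 549 by edgeR's likelihood ratio test and 760 with no filter beyond 1 count. With 1 library left out it ran from 0 to 995 (edgeR, without control replicate 2), being 866 by edgeR without control replicate 1 and 0 by edgeR without either stressed library. By DESeq2 it was 150, 45, 501 and 826 without stressed replicate 1, stressed replicate 2, control replicate 1 and control replicate 2. These fits take the spread from the intact pair and assume it for the lone library. The cause was not tested. The log2 fold change of S1pr3 stayed positive under all 19 alternatives, from 2.59 (DESeq2; 2.60 by edgeR) without stressed replicate 2 to 4.06 (DESeq2) without stressed replicate 1, and those of S1pr2, S1pr5, Sphk2 and Sgpp1 stayed negative under all 19. Those of Sphk1 and Spns2 each changed sign under 4, all with 1 library left out.

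Plpp2 turned to -0.0084 with upper-quartile scaling, -0.0072 with the 5 CPM minimum and -0.018 with thinning, and ran from -0.25 to 0.31 with 1 library left out, being -0.053 by edgeR and -0.060 by DESeq2 without stressed replicate 2. Mfsd2a ran from -0.19 to 1.07. The list median of the lysophosphatidic acid and cannabinoid receptors was -0.66 with the 5 CPM minimum, and with 1 library left out ran from -1.02 to -0.038, being -0.53 without control replicate 1. Likewise the median of the other S1P handling genes ran from -0.44 to -0.027, and that of the YAP and SRF targets from 0.08 to 0.31, being 0.25 without control replicate 1. Those of ceramide turnover and of G protein coupling changed sign, running from -0.09 to 0.24 and from -0.016 to 0.14. The replicate number as a block gave 0 calls with a smallest adjusted p of 0.0565, against 0.115 without it, and 3.42 for S1pr3. The labels do not say that the numbers pair the libraries, and the correlation of same-numbered deviations was 0.171. Depth limits S1pr1 and S1pr4, at 0 counts, and Sgpp2.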
